A study of Homo sapiens with 6 samples.

Results

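The clustered histone genes are the protein-coding genes of the HIST1 to HIST4 clusters, which encode the linker histone H1 and the core histones H2A, H2B, H3 and H4. They were taken from the deposited expression table as every protein-coding gene whose symbol starts with HIST1H, HIST2H, HIST3H or HIST4H. This gave 71 of 27420 listed genes, of which 20311 are protein-coding. By class, 6 encode H1, 17 H2A, 18 H2B, 15 H3 and 15 H4. By cluster, 55 belong to HIST1 on chromosome 6, 12 to HIST2 and 3 to HIST3 on chromosome 1, and 1 to HIST4 on chromosome 12.

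Most of these genes are replication-dependent, which means that they are transcribed mainly while DNA is copied, when new chromatin needs histones. Their transcripts have no introns and usually end without a poly(A) tail, in a conserved stem-loop that is bound by the stem-loop binding protein SLBP and released from the longer precursor by a cut that is guided by the U7 small nuclear RNA. Some of the genes also give longer transcripts that run past the stem-loop to a polyadenylation site, and a separate set of replication-independent histone genes, such as H3F3A and H2AFZ, gives spliced and polyadenylated mRNA throughout the cell cycle.

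RNA was sequenced from 6 libraries of A673 and SKNMC, a pair of established Ewing sarcoma lines that carry the EWS-FLI1 fusion. The cells of each line had received THZ1, a covalent inhibitor of the transcriptional kinase CDK7, at 50 nM or 200 nM, or DMSO as vehicle, for 6 h, and no other agent separates the groups. Every condition is 1 library, so the spread between cultures is unknown and the differences below are descriptions without a test. Values are FPKM, which count sequenced fragments relative to the length of the transcript and to the size of the library and so give a share of each library and not an amount per cell. The read depth is unknown, and in bulk RNA fewer cells that express a gene and less of its RNA per cell cannot be told apart. All 6 Ewing sarcoma markers examined (NKX2-2, NR0B1, CCND1, PRKCB, STEAP1 and CD99) were above 1 FPKM with DMSO in both lines. Of the markers of other cells, CD3E was listed at 0 and EPCAM stayed below 1 FPKM, while the epithelial keratin KRT18 stood at 125 FPKM in A673 and 143 FPKM in SKNMC with DMSO, and the leukocyte marker PTPRC at 0.02 FPKM in A673 and 10.2 FPKM in SKNMC. The part of PTPRC-expressing cells in the SKNMC values was not tested.

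The stem-loop is the feature that sets these mRNAs apart, so it is shown for members that the results turn on. It was searched on the strand of the gene, between the annotated start and 150 bases after the annotated end, in the GRCh37 (hg19) genome sequence. A match was a 6-base stem around a 4-base loop, with every base of the stem paired. The first arm of the stem had to start with GG and end with T, and the loop had to start with T. Stem-loops of other forms were not counted. A match was found in 69 of 71 members (97.2%), and not in HIST1H2AG or HIST1H2AK. Of the matches, 41 members held the form printed for HIST1H1C and 10 the form printed for HIST1H2BK. The 16 bases of the stem-loop are in capitals, with 5 bases on either side, all read 5′ to 3′ on the strand of the gene:
HIST1H1C, chr6:26055967-26055992, minus strand: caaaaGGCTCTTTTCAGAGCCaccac
HIST1H2BG, chr6:26216441-26216466, minus strand: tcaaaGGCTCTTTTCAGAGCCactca
HIST1H2BK, chr6:27114140-27114165, minus strand: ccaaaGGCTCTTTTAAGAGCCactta
HIST1H3G, chr6:26271146-26271171, minus strand: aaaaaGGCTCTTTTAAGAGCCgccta
HIST1H4C, chr6:26104540-26104565, plus strand: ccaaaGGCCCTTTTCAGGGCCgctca
HIST2H2BE, chr1:149857733-149857758, minus strand: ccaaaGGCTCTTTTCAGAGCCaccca

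The position of the stem-loop relative to the annotated end of the gene split the members. It lay within a window from 100 bases before to 50 bases after the annotated end in 48 of the 51 members with a span of up to 1000 bases, and in 1 of the 20 members with a longer span. Among the other protein-coding genes, 2 of 20227 (0.00989%) held a stem-loop of the searched form in that window. In most of the longer members the annotation runs far past the stem-loop, for example by 8072 bases in HIST1H2BK, 14432 in HIST1H2AC, 12747 in HIST1H2BD, 1728 in HIST2H2BE, 8599 in HIST1H2BC and 4076 in HIST1H4H. In the short members HIST1H2BG and HIST1H3G it ends 18 and 5 bases after it. Among the longer members, the annotation of HIST1H3J ends 5 bases after a stem-loop. That of HIST1H3D ends 51 bases before the end of a stem-loop, and HIST1H2AG has no match. FPKM is scaled to the length of the transcripts used, so reads from the short mRNA and reads from the long transcript enter the value of a long member together and cannot be told apart in these data.

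Many of the genes are arranged head to head and share the sequence between their starts. There were 14 such pairs of starts within 1000 bases, 12 of them of an H2A and an H2B gene, with gaps of 189 to 346 bases (median 244). The gaps of a pair on chromosome 6 and of a pair on chromosome 1 are printed on the plus strand of hg19, with CCAAT (a site for NF-Y), TATAAA (the TATA box) and ATTTGCAT (the octamer read by POU2F1), on either strand, in capitals. They are shown because the genes on the 2 sides differed in level in some or all libraries. HIST1H2BG stood below HIST1H2AE with DMSO, where both were under 1 FPKM, and near it at 200 nM THZ1. HIST2H2BE stood above HIST2H2AC in every library:
Gap between HIST1H2BG and HIST1H2AE, chr6:26216873-26217164: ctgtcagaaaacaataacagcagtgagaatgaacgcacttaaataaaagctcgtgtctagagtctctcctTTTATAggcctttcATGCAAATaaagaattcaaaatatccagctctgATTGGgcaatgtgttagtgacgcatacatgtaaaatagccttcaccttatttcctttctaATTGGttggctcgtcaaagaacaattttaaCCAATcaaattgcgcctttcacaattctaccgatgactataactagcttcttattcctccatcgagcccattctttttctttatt
Gap between HIST2H2BE and HIST2H2AC, chr1:149858233-149858524: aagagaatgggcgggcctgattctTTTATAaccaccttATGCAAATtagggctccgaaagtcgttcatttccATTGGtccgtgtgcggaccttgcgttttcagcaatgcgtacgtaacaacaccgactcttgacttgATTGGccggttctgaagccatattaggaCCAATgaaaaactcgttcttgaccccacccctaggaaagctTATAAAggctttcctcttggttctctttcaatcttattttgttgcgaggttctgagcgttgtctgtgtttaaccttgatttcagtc

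In the RefSeq promoter sequences (GRCh38.p14, 250 bases before to 50 after each start, both strands searched), 66 of the 71 members were found. TATAAA was in 44 of them (66.7%, against 3264 of 27305 promoters in all), CCAAT in 56 (84.8%, against 35.7%) and ATTTGCAT in 25 (37.9%, against 1.8%). CCAAT was in all matched H1, H2A, H2B and H3 promoters and in 3 of 13 H4 promoters. ATTTGCAT was in 13 of 18 H2B and 11 of 16 H2A promoters, in 1 of 13 H3 promoters and in none of the 6 H1 or 13 H4 promoters. These are matches of letters and not mapped binding sites.

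With DMSO, few clustered histone genes were above 1 FPKM. In A673 there were 8 of 71 (11.3%) with DMSO, 19 (26.8%) with 50 nM THZ1 and 31 (43.7%) with 200 nM THZ1. In SKNMC there were 12 (16.9%) with DMSO, 12 (16.9%) with 50 nM THZ1 and 25 (35.2%) with 200 nM THZ1. The share of all protein-coding genes above 1 FPKM moved the other way, from 53.3% to 50.3% and 49.8% in A673 and from 56.9% to 53.2% and 53.0% in SKNMC. Across the libraries 39 members were above 1 FPKM in at least 1, 7 were above it in all 6, 23 were below 0.5 FPKM in all 6, and 5 of those (HIST2H2AA4, HIST1H4G, HIST2H3A, HIST1H2BA and HIST1H2AA) were listed at 0 throughout. The 4 testis-type members were at most 0.457 FPKM in any library. Whether RNA was selected for poly(A) is not given, so low FPKM need not mean that mRNA without a tail was scarce in the cells. How reads that match several near-identical copies were counted is not given either, so a value of 0 need not mean that a copy was silent.

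Members crossed 1 FPKM upwards with THZ1, and none that was above it with DMSO was not above it at 200 nM. Of the 63 members at or below 1 FPKM with DMSO in A673, 23 (36.5%) were above it at 200 nM, where 2.23% of the 9492 protein-coding genes at or below 1 FPKM with DMSO were. At 50 nM there were 11 of 63 (17.5%, against 1.47%). In SKNMC 13 of 59 crossed at 200 nM, against 2.35% of 8760 genes, and 0 of 59 at 50 nM, against 1.26%.

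A list of 5 members is known to give polyadenylated transcripts as well (HIST1H1C, HIST1H2AC, HIST1H2BD, HIST1H2BK and HIST2H2BE). HIST1H1C, which encodes a linker histone, stood at 5.15, 8.38 and 8.11 FPKM in A673 with DMSO, 50 nM and 200 nM THZ1 and at 63.3, 78.0 and 83.0 FPKM in SKNMC. It was the highest member in SKNMC and was 12.3 times as high there as in A673 with DMSO. Both THZ1 values lay above DMSO in each line, with log2 fold changes (of FPKM + 1) of 0.61 and 0.57 in A673 and 0.30 and 0.39 in SKNMC, but with the libraries scaled to their ribosomal protein genes the SKNMC values became -0.11 and -0.21.

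HIST1H2BK, an H2B gene, was the highest member in A673, with 21.1, 31.3 and 30.9 FPKM, and had 15.7, 22.2 and 32.5 FPKM in SKNMC. Its log2 fold changes were 0.55 and 0.53 in A673 and 0.48 and 1.01 in SKNMC, so that in A673 the doses were at the same level while in SKNMC the higher dose stood highest. HIST2H2BE, an H2B gene of the HIST2 cluster, had 1.62, 3.96 and 3.79 FPKM in A673 and 3.64, 7.95 and 13.4 FPKM in SKNMC. Its log2 fold changes of 0.92, 0.87, 0.95 and 1.63 ranked highest at either dose, by the smaller of the values in A673 and SKNMC, among the 7 members above 1 FPKM in both DMSO libraries.

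HIST1H2AC and HIST1H2BD, an H2A and an H2B gene of the HIST1 cluster, did not follow the same course in both lines. HIST1H2AC was at 7.005, 15.3 and 9.41 FPKM in A673 and at 40.6, 47.8 and 29.1 FPKM in SKNMC, highest at 50 nM in each. Its value at 200 nM in SKNMC was below DMSO (log2 fold change -0.47), but became 0.09 above it when libraries were scaled to the 75th percentile of active genes. HIST1H2BD was at 2.95, 3.84 and 6.87 FPKM in A673 and at 42.9, 24.9 and 22.96 FPKM in SKNMC, higher with THZ1 in A673 (0.29 and 0.99) and lower in SKNMC (-0.76 and -0.87). Whether the lines differ here could not be tested without replicates.

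HIST3H2A, an H2A gene of the HIST3 cluster, was the 1 member listed lower with THZ1 in all 4 comparisons with DMSO. It was at 9.13, 7.17 and 7.71 FPKM in A673 and at 7.70, 6.53 and 5.12 FPKM in SKNMC. Its log2 fold changes were -0.31 and -0.22 in A673 and -0.21 and -0.51 in SKNMC, and 2 of them became 0.12 (A673, 200 nM) and 0.05 (SKNMC, 50 nM) with the 75th percentile scaling. HIST1H2BC, with 3.34, 3.46 and 2.54 FPKM in A673 and 9.15, 11.6 and 8.20 FPKM in SKNMC, differed little from DMSO, with log2 fold changes of 0.04, -0.29, 0.31 and -0.14 that changed sign with the scaling in 3 of the 4 comparisons.

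**Figure D1:**
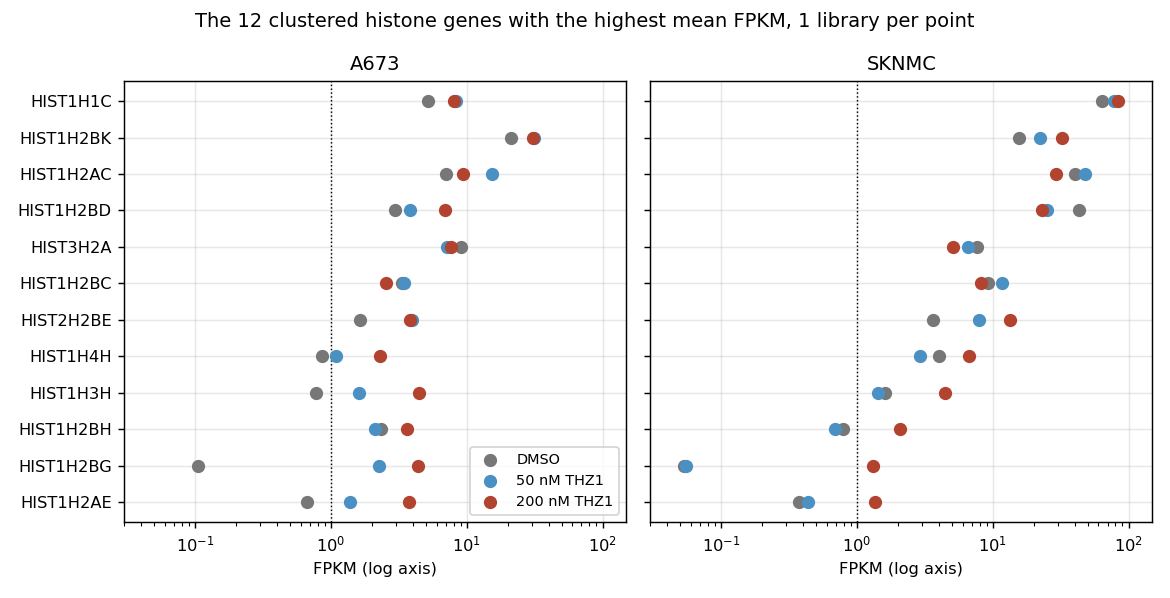
FPKM on a log axis of the 12 members with the highest mean over the 6 libraries, 1 point per library, A673 left and SKNMC right, with a dotted line at 1 FPKM. HIST1H2BG, for example, goes from 0.106 to 4.36 FPKM in A673 between DMSO and 200 nM THZ1, while HIST1H2BC stays between 2.54 and 3.46 FPKM.

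Below these stood members that were under 1 FPKM with DMSO in at least 1 line and above it at 200 nM in both. HIST1H3H, an H3 gene, was at 0.774, 1.595 and 4.46 FPKM in A673 and at 1.62, 1.43 and 4.42 FPKM in SKNMC. HIST1H4H, an H4 gene, was at 0.863, 1.09 and 2.29 FPKM in A673 and at 4.03, 2.92 and 6.67 FPKM in SKNMC. In both genes the 200 nM library was the highest of each line, and the 50 nM library lay above DMSO in A673 and below it in SKNMC.

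HIST1H2BG and HIST1H2AE, the H2B and H2A genes on the 2 sides of the first printed gap, were both highest at 200 nM. HIST1H2BG was at 0.106, 2.27 and 4.36 FPKM in A673 and at 0.0530, 0.0546 and 1.32 FPKM in SKNMC. HIST1H2AE was at 0.663, 1.37 and 3.76 FPKM in A673 and at 0.376, 0.434 and 1.37 FPKM in SKNMC. In SKNMC both genes stayed at their DMSO level at 50 nM within 0.06 on the log2 scale. HIST1H2BH, another H2B gene, was at 2.33, 2.10 and 3.61 FPKM in A673 and at 0.785, 0.683 and 2.08 FPKM in SKNMC, again highest at 200 nM.

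With DMSO, the 5 genes of the polyadenylated list summed to 37.8 FPKM in A673 and 166 FPKM in SKNMC. The other 66 members summed to 26.9 FPKM and 36.8 FPKM. The distance between the lines thus lay mainly in HIST1H1C, HIST1H2AC and HIST1H2BD.

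Counted over members above 1 FPKM with DMSO, none was at least 2-fold lower in any of the 4 comparisons with DMSO, where 15.9% (A673, 50 nM), 25.3% (A673, 200 nM), 15.8% (SKNMC, 50 nM) and 27.3% (SKNMC, 200 nM) of all genes above 1 FPKM were. For the 8 members in A673 the log2 fold changes had medians of 0.42 (50 nM) and 0.50 (200 nM), beside -0.27 and -0.40 for all such genes. In SKNMC the 12 members had -0.16 and 0.07, beside -0.32 and -0.55. At least 2-fold higher were 1 of 8 (HIST1H2AC) at 50 nM in A673, against 0.343% of all genes, 0 of 8 at 200 nM (0.126%), 0 of 12 at 50 nM in SKNMC (0.471%) and 3 of 12 at 200 nM (0.462%), which were HIST1H2BK, HIST1H3H and HIST2H2BE. The medians depend on the scaling: with the ribosomal protein genes as reference they were 0.22, 0.20, -0.45 and -0.30.

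Without the filter on the DMSO level, all 71 members enter and the low ones carry the count. At least 2-fold higher on the FPKM + 1 scale were 4 members at 50 nM in A673 (0.266% of all 27420 listed genes were), 14 at 200 nM (0.252%), 0 at 50 nM in SKNMC (0.299%) and 9 at 200 nM (0.401%). Of the 69 genes that were at least 2-fold higher at 200 nM in A673, 14 were clustered histone genes. No member was at least 2-fold lower, against 6.41%, 10.2%, 6.84% and 11.8% of the listed genes. On this scale a gene under 1 FPKM with DMSO cannot be 2-fold lower. That held for 63 members in A673 and 59 in SKNMC, so the count of 0 says nothing about them.

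The members at least 2-fold higher at 200 nM in both lines were HIST1H2AM, HIST1H2BG, HIST1H3B, HIST1H3H and HIST1H3J, which are 35.7% of the 14 in A673 and 55.6% of the 9 in SKNMC. The overlap of the lines over all listed genes was not counted. Whether these shares, or the members found in 1 line only, are particular to histone genes is therefore unknown. HIST1H3B, an H3 gene, was at 0.434, 0.858 and 2.95 FPKM in A673 and at 0.162, 0.684 and 1.93 FPKM in SKNMC. HIST1H2AM, an H2A gene, was at 0.379, 1.24 and 2.62 FPKM in A673 and at 0.0967, 0.399 and 1.22 FPKM in SKNMC. HIST1H3J, an H3 gene that overlaps HIST1H2AM by 408 bases on the same strand, was at 0.0714, 0.672 and 3.23 FPKM in A673 and at 0.144, 0.277 and 1.45 FPKM in SKNMC. Each of these 3 genes was ordered DMSO, 50 nM, 200 nM in both lines, and the reads of the overlapping pair may be shared.

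A further 9 members passed 2-fold at 200 nM in A673 and not in SKNMC: HIST1H1D, HIST1H2AE, HIST1H2AG, HIST1H2AH, HIST1H3F, HIST1H3G, HIST1H4C, HIST1H4D and HIST2H3D. HIST1H3G, an H3 gene, was at 0.154, 2.14 and 5.45 FPKM in A673 and was listed at 0, 0 and 0.0555 FPKM in SKNMC. HIST1H2AG, an H2A gene, was at 0.404, 1.13 and 4.39 FPKM in A673 and at 0.114, 0.0721 and 0.858 FPKM in SKNMC. HIST1H4C, an H4 gene, was at 0.231, 1.49 and 2.74 FPKM in A673 and at 0, 0.0791 and 0.249 FPKM in SKNMC. These 3 members stayed under 1 FPKM in every SKNMC library, where the added 1 FPKM makes a 2-fold change hard to reach.

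In the other direction, HIST1H2BK, HIST1H4B, HIST1H4E and HIST2H2BE passed 2-fold at 200 nM in SKNMC and not in A673. HIST1H4B, an H4 gene, was at 0.245, 0.338 and 0.354 FPKM in A673 and at 0, 0.0847 and 2.38 FPKM in SKNMC. HIST1H4E, also an H4 gene, was at 0.123, 0.324 and 1.12 FPKM in A673 and at 0.327, 0.478 and 1.85 FPKM in SKNMC. Its log2 fold changes at 200 nM, 0.92 in A673 and 1.10 in SKNMC, lay on either side of the threshold. Without the added 1 FPKM its ratio to DMSO was larger in A673 (9.17 against 5.65). Whether the lines differ in these members was not tested.

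**Figure D2:**
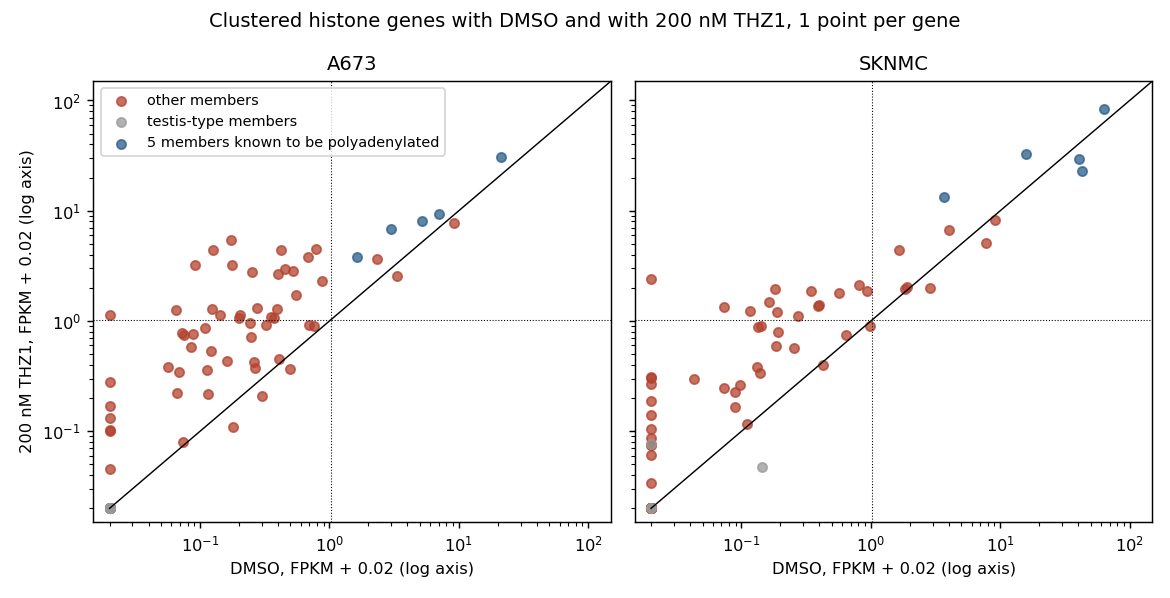
FPKM of all 71 members with DMSO (x axis) and with 200 nM THZ1 (y axis), 1 point per gene, with 0.02 added so that values listed at 0 can be drawn on the log axes. The solid line marks equal values and the dotted lines 1 FPKM. In A673 56 members lie above the solid line and 5 below it, and in SKNMC 47 above and 8 below. Of the members above 0 in either library, 91.8% and 85.5% lie above, against 36.3% and 28.1% of such protein-coding genes.

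As near-identical copies can share reads, sums over members were taken, which depend less on how reads were split between copies. Any reads left out because they match several copies would be missing from the sums too. All 71 members summed to 64.8, 103 and 141 FPKM in A673 (159% and 218% of DMSO at 50 nM and 200 nM) and to 203, 217 and 241 FPKM in SKNMC (107% and 119%, but 80.6% and 78.2% with the ribosomal protein genes as reference). The 5 genes of the polyadenylated list summed to 37.8, 62.7 and 59.1 FPKM in A673 (166% and 156%) and to 166, 181 and 181 FPKM in SKNMC (109% and 109%). The other 66 members summed to 26.9, 40.2 and 82.3 FPKM in A673 (149% and 306%) and to 36.8, 36.3 and 60.2 FPKM in SKNMC (98.7% and 164%).

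The polyadenylated list stood at nearly the same sum at both doses, while the other 66 members were highest at 200 nM in both lines. With the 75th percentile of active genes as reference, the list was at 198% and 203% of DMSO in A673 and at 133% and 162% in SKNMC, and with the ribosomal protein genes at 141%, 122%, 82.0% and 71.7%, below DMSO in SKNMC. Over all 71 members, 52 were listed higher at 50 nM and 56 at 200 nM in A673, against 34.0% and 36.3% of the protein-coding genes above 0 in either library, and 33 and 47 in SKNMC, against 30.0% and 28.1%. At 200 nM, 51 of the 66 were listed higher than with DMSO in A673, 5 lower and 10 equal, and in SKNMC 44, 6 and 16. With the libraries scaled to their ribosomal protein genes the sum of the 66 at 200 nM was 239% of DMSO in A673 and 108% in SKNMC, and with the 75th percentile of active genes 396% and 243%.

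The classes H3 and H4 hold no gene of the polyadenylated list. The 15 H3 genes summed to 3.10, 8.97 and 24.9 FPKM in A673 (289% and 801% of DMSO) and to 4.03, 4.22 and 11.3 FPKM in SKNMC (105% and 279%). The 15 H4 genes summed to 2.67, 4.96 and 11.3 FPKM in A673 (186% and 421%) and to 5.30, 4.61 and 13.7 FPKM in SKNMC (87.1% and 259%). Both classes were highest at 200 nM in each line. Scaled to the ribosomal protein genes, the 200 nM sums of both stayed above DMSO in SKNMC (184% and 170%), while the 50 nM sums were below it (78.8% and 65.6%).

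The H1, H2A and H2B classes hold that list, and their sums differ with and without it. With it, the H1 genes were at 170% and 193% of DMSO in A673 and at 123% and 133% in SKNMC. The H2A genes were at 149% and 177% in A673 and at 111% and 80.8% in SKNMC. The H2B genes were at 149% and 177% in A673 and at 92.4% and 115% in SKNMC. The H2A sum in SKNMC at 200 nM is the only class sum below DMSO at that dose, and HIST1H2AC is its largest member; with the 75th percentile scaling that sum was 120% of DMSO. Scaled to the ribosomal protein genes, the H1, H2A and H2B sums of SKNMC were all below DMSO, at 92.8%, 83.6% and 69.6% (50 nM) and 87.5%, 53.2% and 75.7% (200 nM). Without the list, the other 5 H1 genes were low, with sums of 0.251, 0.814 and 2.33 FPKM in A673 (324% and 929% of DMSO) and 0.697, 0.915 and 2.07 FPKM in SKNMC (131% and 297%). The other 16 H2A genes were at 111% and 200% in A673 and at 87.5% and 113% in SKNMC, and the other 15 H2B genes at 138% and 226% in A673 and at 108% and 132% in SKNMC. Outside the list, every class was thus above DMSO at 200 nM in both lines as deposited. The HIST3 cluster, of 3 genes led by HIST3H2A, was at 79.8% and 87.4% of DMSO in A673 and at 85.5% and 78.7% in SKNMC.

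**Figure D3:**
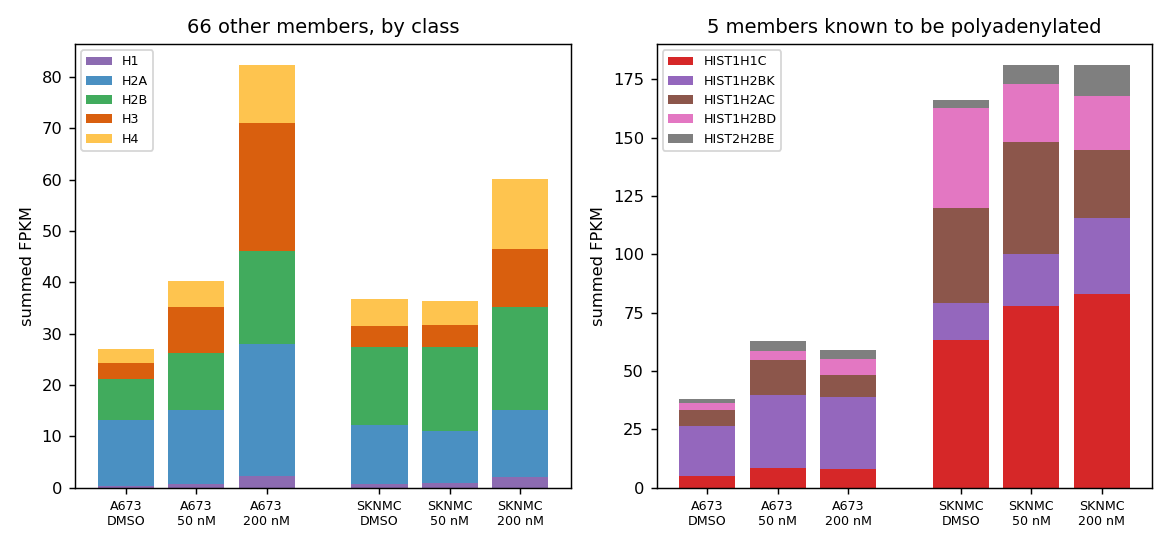
Summed FPKM per library (y axes from 0, scales differ). On the left the 66 members outside the polyadenylated list are stacked by class; they reach 82.3 FPKM in A673 and 60.2 FPKM in SKNMC at 200 nM. On the right the 5 genes of that list are stacked; HIST1H1C has the widest part in SKNMC and HIST1H2BK in A673.

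Short members make up most of the 66, so their sums are a part of those given above and not a separate result. The 50 members with a span of up to 1000 bases other than HIST1H1C, whose annotation ends near the stem-loop in most, summed to 20.1, 30.8 and 64.3 FPKM in A673 (153% and 320%) and to 16.5, 16.6 and 33.4 FPKM in SKNMC (101% and 202%). HIST1H1C, which is on the polyadenylated list, has a span of 732 bases that ends 4 bases after its stem-loop. In 11 of the 14 head-to-head pairs both genes were listed higher at 200 nM in A673, and in 9 in SKNMC. Over all 71 members, 56 were listed higher in A673 and 47 in SKNMC, and an effect of pairing was not tested. The 14 pairs share some genes and hold 26 in all, and HIST1H2AA and HIST1H2BA were listed at 0 throughout. Some partners differed widely in level: HIST1H2BK, at 21.1 FPKM with DMSO in A673, stands 241 bases from HIST1H2AH, an H2A gene with 0.105, 0.262 and 1.27 FPKM in A673 and 0, 0 and 0.287 FPKM in SKNMC. On the sides of the gap printed from chromosome 1, HIST2H2BE was higher with THZ1 in both lines, while HIST2H2AC had 0.746, 0.898 and 0.888 FPKM in A673 and 1.81, 1.19 and 1.95 FPKM in SKNMC.

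Values under 1 FPKM rest on few reads, so the low members were set beside other low genes. Among protein-coding genes with a mean above 0 and below 1 FPKM over the libraries of A673, 37 of 42 members (88.1%) were listed higher at 200 nM than with DMSO, against 43.4% of 6123 genes, and 33 of 42 (78.6%) at 50 nM, against 36.1%. In SKNMC there were 38 of 43 (88.4%) at 200 nM, against 41.5% of 6062 genes, and 28 of 43 (65.1%) at 50 nM, against 31.0%. Short genes as such were also more often higher: with spans of up to 1000 bases 59.3% (200 nM) and 53.8% (50 nM) of such low genes were higher in A673 and 61.3% and 50.9% in SKNMC, and 51.3%, 47.8%, 55.0% and 47.3% without the members. The part of gene length in the members' values was not tested further.

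Over all 4 comparisons with DMSO, 25 of the 66 members above 0 in any library (37.9%) were listed higher in each, against 9.57% of 17795 protein-coding genes. The comparisons within a line share the DMSO library, and 9 of the 25 members were at or below 0.05 FPKM in a DMSO library, HIST1H2AD, below 0.001 FPKM throughout SKNMC, among them. HIST3H2A was lower in each. HIST1H2AK, HIST1H2BD and HIST1H2BN were higher in both A673 comparisons and lower in both SKNMC comparisons, and HIST1H2AB the reverse. How often other genes took opposite directions in the lines was not counted.

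The THZ1 doses were also compared directly. In A673 the log2 fold change from 50 nM to 200 nM of the 19 members above 1 FPKM at the lower dose had a median of 0.58, beside -0.02 for all genes above 1 FPKM there, and 4 of them were at least 2-fold higher (0.134% of those genes). In SKNMC the 12 members had a median of 0.28, beside -0.16, and 1 was at least 2-fold higher (0.362%). None was 2-fold lower in either line, where 7.97% and 9.09% were. Over all 71 members, 50 were higher and 13 lower at 200 nM than at 50 nM in A673, and 47 higher and 10 lower in SKNMC. Of the members above 0 in either library, 79.4% and 82.5% were higher, against 52.0% and 45.1% of such protein-coding genes. At least 2-fold higher were 7 of the 71 in A673 (0.106% of all listed genes) and 4 in SKNMC (0.255%).

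The replication-independent histone genes, whose mRNAs are mostly polyadenylated, had far higher FPKM, and as deposited their sum was lowest at 200 nM in both lines. Whether RNA was selected for poly(A) is not given, so FPKM of mRNAs with and without a tail cannot be compared as amounts. The 12 replication-independent genes summed to 2032, 1832 and 1749 FPKM in A673 (90.2% and 86.1% of DMSO) and to 1646, 1755 and 1541 FPKM in SKNMC (107% and 93.6%). H2AFZ, which encodes the variant H2A.Z, was at 769, 763 and 693 FPKM in A673 and at 576, 641 and 531 FPKM in SKNMC. None of the 11 genes above 1 FPKM was at least 2-fold higher in any comparison, and 1, 2, 2 and 1 were 2-fold lower (A673 50 nM, A673 200 nM, SKNMC 50 nM, SKNMC 200 nM). In the same order their medians were -0.03, -0.15, -0.09 and -0.12, above those of all genes above 1 FPKM (-0.27, -0.40, -0.32 and -0.55). Of all genes above 1 FPKM, 15.9%, 25.3%, 15.8% and 27.3% were at least 2-fold lower. The clustered members had medians of 0.42, 0.50, -0.16 and 0.07. CENPA, the H3 variant of centromeres, was lower by more than 2-fold in all 4, with 35.7, 9.28 and 6.27 FPKM in A673 and 27.2, 11.2 and 6.76 FPKM in SKNMC.

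The H3 variants H3F3A and H3F3B, which encode the same H3.3 protein, stood apart from each other. H3F3B was at 428, 278 and 243 FPKM in A673 and at 351, 296 and 265 FPKM in SKNMC. H3F3A was at 142, 198 and 197 FPKM in A673 and at 222, 301 and 274 FPKM in SKNMC. As deposited, H3F3A was higher and H3F3B lower with THZ1 in every comparison with DMSO, but in SKNMC H3F3A at 200 nM became lower (-0.30) with the ribosomal protein genes as reference and H3F3B became higher (0.05 and 0.16) with the 75th percentile. H2AFV, another H2A.Z gene, was at 124, 164 and 152 FPKM in A673 and at 157, 206 and 180 FPKM in SKNMC, above DMSO in each, except with the ribosomal protein genes as reference in A673 at 200 nM and in SKNMC at both doses.

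Of the genes whose products transcribe and process histone mRNA, 19 of 20 were listed, all above 1 FPKM with DMSO, and none was 2-fold higher. In A673 5 (50 nM) and 6 (200 nM) were at least 2-fold lower and in SKNMC 7 and 8, with medians of -0.38, -0.49, -0.60 and -0.74 beside -0.27, -0.40, -0.32 and -0.55 for all genes above 1 FPKM. Of all genes above 1 FPKM, 15.9%, 25.3%, 15.8% and 27.3% were at least 2-fold lower. NPAT, the coactivator of histone gene transcription, was at 9.49, 2.11 and 1.08 FPKM in A673 and at 6.30, 1.65 and 0.741 FPKM in SKNMC. ZNF473, a zinc finger protein of the U7 processing complex, was at 5.47, 1.19 and 0.376 FPKM in A673 and at 7.34, 2.82 and 0.841 FPKM in SKNMC. Both were at least 2-fold lower in all 4 comparisons and lowest at 200 nM, opposite to the 66 members.

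LSM10, a subunit of the U7 ribonucleoprotein, and COIL, the coilin of Cajal bodies, were the others at least 2-fold lower in all 4. LSM10 was at 32.9, 12.03 and 13.3 FPKM in A673 and at 38.2, 12.1 and 9.66 FPKM in SKNMC. COIL was at 9.72, 3.43 and 1.07 FPKM in A673 and at 13.2, 4.81 and 3.08 FPKM in SKNMC.

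The most abundant genes of that list did not move as one. SLBP, which binds the stem-loop, was at 69.5, 63.6 and 40.3 FPKM in A673 and at 76.4, 66.1 and 28.2 FPKM in SKNMC, lowest at 200 nM in both. SRRT (ARS2), which links the cap-binding complex to 3′ end processing, was at 64.2, 105 and 92.8 FPKM in A673 and at 68.1, 105 and 122 FPKM in SKNMC, above DMSO in each comparison and with each scaling. NCBP2, of the cap-binding complex, was at 63.8, 52.2 and 64.3 FPKM in A673 and at 87.6, 64.2 and 73.8 FPKM in SKNMC, and CPSF1, of the cleavage complex, was at 49.7, 48.0 and 47.1 FPKM in A673 and at 55.1, 63.2 and 77.0 FPKM in SKNMC.

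Of 10 genes for the decay of histone mRNA, 9 were listed. Of these, 0 and 1 were at least 2-fold lower in A673 (50 nM and 200 nM), 0 and 1 in SKNMC, and none was higher. Their medians were -0.14, -0.48, -0.19 and -0.62, beside -0.27, -0.40, -0.32 and -0.55 for all genes above 1 FPKM. Over all genes above 1 FPKM, 15.9%, 25.3%, 15.8% and 27.3% were at least 2-fold lower. The exonuclease gene EXOSC10 was at 38.5, 34.8 and 27.4 FPKM in A673 and at 46.3, 40.3 and 32.8 FPKM in SKNMC, and LSM1, of the decapping activator, at 43.8, 29.8 and 28.8 FPKM in A673 and 42.0, 29.4 and 24.3 FPKM in SKNMC. PAPD4, a terminal nucleotidyltransferase, and the helicase UPF1 were also lowest at 200 nM in both lines, at 18.2 and 22.8 FPKM in A673 and 20.1 and 17.5 FPKM in SKNMC.

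Since clustered histone genes are active in S phase, 22 genes of DNA replication and S phase were set beside them. Of these, 5 and 5 were at least 2-fold lower in A673 and 3 and 6 in SKNMC, with medians of -0.24, -0.16, -0.32 and -0.66, and none was 2-fold higher. Over all genes above 1 FPKM, 15.9%, 25.3%, 15.8% and 27.3% were lower, with medians of -0.27, -0.40, -0.32 and -0.55, so the list lay near that background. PCNA, the clamp of the replication fork, was at 338, 357 and 298 FPKM in A673 and at 264, 292 and 151 FPKM in SKNMC. TYMS, which makes thymidylate, was at 261, 298 and 317 FPKM in A673 and at 105, 117 and 106 FPKM in SKNMC.

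The replicative helicase gene MCM7 was at 195, 185 and 195 FPKM in A673 and 149, 117 and 105 FPKM in SKNMC, and RRM2, of ribonucleotide reductase, at 226, 168 and 207 FPKM in A673 and 132, 82.9 and 74.5 FPKM in SKNMC. CHAF1A, a chaperone that places new H3 and H4 on DNA, and CCNE2, a cyclin E, were at least 2-fold lower in all 4 comparisons. CHAF1A was at 35.4, 8.03 and 8.43 FPKM in A673 and at 19.5, 7.42 and 6.47 FPKM in SKNMC. CCNE2 was at 8.09, 3.04 and 1.95 FPKM in A673 and at 21.3, 8.31 and 5.42 FPKM in SKNMC. The share of cells in S phase was not measured in these data. Of the genes named from the comparison lists, CENPA, SRRT, NPAT, ZNF473, LSM10, COIL, LSM1, CHAF1A and CCNE2 kept their direction with each scaling in all 4 comparisons, and each of the others changed sign in at least 1.

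**Figure D4:**
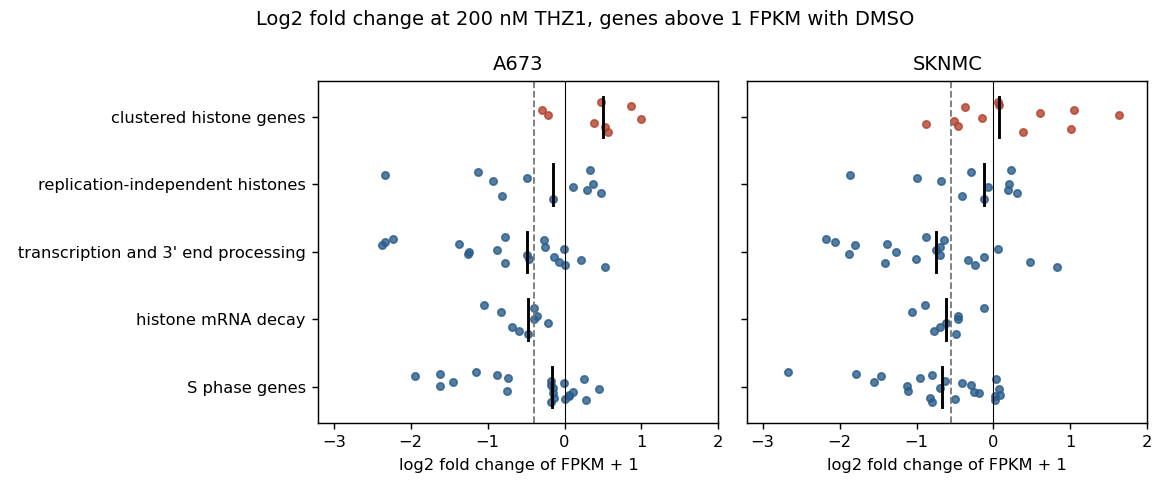
Log2 fold change of FPKM + 1 at 200 nM THZ1 against DMSO, 1 point per gene above 1 FPKM with DMSO, in A673 (left) and SKNMC (right). Thick bars are medians of each list, the dashed line is the median of all such genes (-0.40 in A673, -0.55 in SKNMC) and the thin line is 0. The clustered histone genes have medians of 0.50 and 0.07.

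Some limits of counting touch single members. HIST1H2BK overlaps HIST1H4I on the opposite strand by 1343 bases, HIST1H3D overlaps HIST1H2AD on the same strand by 393 bases, and the H3 and H4 genes of HIST2 overlap in 2 opposite pairs by 230 bases each. Altogether 12 members overlap another listed gene. Whether strand was used in counting is not given in the sources used here, so reads of opposite partners may not have been told apart. Apart from HIST1H2AD, which is listed above 0 but below 0.001 FPKM in all SKNMC libraries, the lowest values above 0 of members with spans of up to 1000 bases were 0.0233 to 0.0593 FPKM in the 6 libraries, and 17, 12 and 10 members were listed at 0 in A673 (DMSO, 50 nM, 200 nM) and 29, 24 and 16 in SKNMC.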

How the data were processed

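Members and gene lists were chosen with earlier results of these data known. The authors made TruSeq libraries and aligned reads to hg19; the paper names STAR and StringTie, and the submitters' processing notes name STAR and Cufflinks. Whether RNA was selected for poly(A) is not given in the sources used here. The deposited FPKM values cover 27420 genes. The table also holds deposited log2 ratios of THZ1 to DMSO, computed by the authors, which were not used. The table's title speaks of averages, but the labels give 1 library per condition, and each column was treated as 1 library.

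Log2 fold changes were log2((FPKM + 1)/(FPKM + 1 of DMSO)), which understates changes of low genes. The expressed genes of a line were those above 1 FPKM with DMSO, and the threshold was 2-fold. There are no replicates and no test; an alternative was called different when it moved a median by over 0.1 or a sum by over 10 percentage points, or changed a count by over 1.5 times. Described in full are the 12 members with the highest mean FPKM, up to 5 with the largest shared increase or decrease at each dose among the 7 above 1 FPKM in both DMSO libraries, and from each list the 4 most abundant genes and those changed 2-fold the same way in all 4 comparisons; members above 1 FPKM in any library could be named. HIST1H2AK, HIST1H2AB and the 5 members at 0 were named after their values were seen. The symbols CASP8AP2, TUT7 and PECAM1 were not matched.

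The file's starts count from 0: of 26108 genes found in GENCODE on GRCh37, 14261 have an annotated start 1 above the file's and 416 an equal one. Coordinates are printed counted from 1. Python 3.11.15 was used with numpy 2.4.6, pandas 2.3.3 and matplotlib 3.10.9. The step that gives medians and 2-fold counts was tested with known shifts put into the A673 DMSO values. The other steps were not tested in this way. Alternatives were a pseudocount of 0.1, other filters, 3 other scalings, a 1.5-fold threshold and sums without single members.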

Additional observations from a re-analysis of the deposited data

Results flagged for a closer look

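HIST1H2BD moved in opposite directions in the 2 lines. On the log2 scale the A673 values were 0.294 (50 nM) and 0.994 (200 nM) above DMSO, while those of SKNMC were -0.758 and -0.872. The signs were kept under the pseudocount of 0.1 and the 3 scalings. This difference was not tested, because each condition is 1 library.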

How the results depend on the processing

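Values are in the order A673 50 nM, A673 200 nM, SKNMC 50 nM, SKNMC 200 nM. Scaling each library to a common sum moved none of the medians, counts or sums, and leaving out members listed at 0 none of the medians or counts. Taking the 75th percentile of the active genes as reference moved the median of all genes by 0.22, 0.32, 0.25 and 0.48, and the 83 ribosomal protein genes moved it by -0.19, -0.29, -0.34 and -0.47. With the 75th percentile the members' medians were 0.65, 0.83, 0.058 and 0.47, the sums 190, 283, 131 and 176% of DMSO, and 2, 2 and 1 members were 2-fold higher in the A673 comparisons and SKNMC 50 nM. With the ribosomal protein genes the medians were 0.22, 0.20, -0.45 and -0.30, the sums 135, 171, 80.6 and 78.2%, 0 members were higher at 50 nM in A673, 1 was lower at 50 nM in SKNMC, and 2 were lower and 1 higher at 200 nM. So the median in SKNMC changed sign at either dose with 1 of these scalings, and its sum fell under DMSO with the ribosomal protein genes.

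With a pseudocount of 0.1, 2, 2 and 1 members were 2-fold higher in the first 3 comparisons. With members above 1 FPKM on the mean of a line, medians were 0.58 and 1.35 in A673 and 0.23 at 200 nM in SKNMC, with 4 and 11 members higher in A673; this filter takes 21 members there instead of 8, and those added passed through their THZ1 values, so a higher median and count follow from the selection. Above 5 FPKM, the A673 median at 50 nM was 0.58 and the SKNMC medians were 0.26 and -0.30, with 1 member higher at 200 nM. Without a filter, medians were 0.12 at 50 nM in A673 and 0.0 at 50 nM in SKNMC, and 4, 14 and 9 members were higher (A673 at both doses, SKNMC at 200 nM). At 1.5-fold, 3 and 2 were higher in A673, 1 higher and 1 lower at 50 nM in SKNMC, and 1 lower at 200 nM. In alternatives chosen after seeing the data, members above 1 FPKM in any library of the line had medians of 0.90 (A673 200 nM), 0.06 (0.0595) and 0.78 (SKNMC), with 4, 14 and 9 higher (A673 at both doses, SKNMC at 200 nM), with the same selection, and without the polyadenylated list the 200 nM sums were 306% and 164%. Without HIST1H2BK, the A673 sum at 200 nM was 253%. These shifts follow from which genes enter or how libraries are scaled; no added standard tells which scaling is nearest to RNA per cell. No library could be left out, as each condition has 1. No paired analysis was possible because the labels give no replicate numbers.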
